A study of Mus musculus with 2 samples.

Results

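Collagen chain genes were compared between 1 array of Fut8-/- and 1 array of Fut8+/+ mouse embryonic fibroblasts (MEFs), connective tissue cells grown from embryos. The chains were taken by symbol, as all probe sets annotated to a single gene named Col, a number, a and a number, which gave 82 probe sets of 42 genes among the 18193 genes named on the array. Genes such as Colgalt1 or Colq, whose products modify or carry a collagen-like domain, are not chains and were not members. Fut8 encodes the enzyme that adds the core fucose of N-glycans, and the Fut8-/- cells lack both normal copies of it. Both cultures were grown in the same serum-containing medium and carried no other labelled change. The sources used here do not give the origin of the embryos, the passage or any immortalisation. The design text names 3 cultures per genotype, but 1 array of each is analysed here, so no difference below has a replicate check and no p-value is given.

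A collagen molecule is a triple helix of 3 alpha chains, each built on a repeat of a glycine followed by 2 other residues. Fibrillar collagens (types I, II, III, V, XI, XXIV and XXVII) assemble into the banded fibres of connective tissue, and network collagens (types IV, VIII and X) into sheets such as the basement membrane. FACITs, the fibril-associated collagens with interrupted triple helices (types IX, XII, XIV, XVI, XIX, XX and XXII), coat fibrils, and type VI forms beaded filaments around cells. Fibroblasts are the main source of types I, III, V and VI. Several types are heterotrimers, so a molecule needs the products of more than 1 gene.

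The deposited values were linear signal intensities, 1 per probe set and array. Ratios below are log2 ratios of Fut8-/- over Fut8+/+ after the Fut8-/- signals had been multiplied by 1.16, which centres the arrays on each other, and after signals under 12.3 had been raised to that floor. Where 1 of the arrays was at the floor, the scaled signals differed by more than the fold given, hence the words at least. Such a fold is a bound for this floor and this probe set only. Noise near the floor was not tested. To be measured, a gene needed a scaled signal of 39.1 on its brighter array, and a 2-fold ratio was the limit for calling it higher or lower. A gene with several probe sets was represented by the brightest of them (by mean log2 signal). For the measured chains, other probe sets with neither array at the floor are given beside it. Genes that are not chains are given by the brightest alone unless stated. Signals are printed as deposited. A signal is not comparable between probe sets, so levels of different chains were not ranked. Probe sets of one gene differed in ratio with an SD of 0.40 over 5389 genes of the array and 0.25 over 13 collagen genes (log2, only probe sets with neither array at the floor), which is a technical spread within this pair of arrays and no error between cultures.

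Printed first are promoter windows of the chains past the 2-fold limit, without Col6a2 and Col1a1. That of Col1a2, whose signal was nearly equal on both arrays, is added. Each window is the 250 bases before the annotated transcription start, from RefSeq on build GRCm38.p6. It is written 5' to 3' in the direction of the gene. Capitals mark matches, on either strand, to the CCAAT box (CCAAT), the GC box (GGGCGG) and the TATA box (TATAAA). The Col1a2 window (chr6:4505368-4505617, plus strand) and the windows of the type V chains Col5a1 (chr2:27886175-27886424, plus strand) and Col5a3 (chr9:20815068-20815317, minus strand) come first.
Col1a2: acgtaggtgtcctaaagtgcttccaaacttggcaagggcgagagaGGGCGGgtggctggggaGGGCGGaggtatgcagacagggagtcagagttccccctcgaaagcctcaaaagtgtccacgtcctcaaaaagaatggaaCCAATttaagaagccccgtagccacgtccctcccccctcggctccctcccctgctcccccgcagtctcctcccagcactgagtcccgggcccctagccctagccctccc
Col5a1: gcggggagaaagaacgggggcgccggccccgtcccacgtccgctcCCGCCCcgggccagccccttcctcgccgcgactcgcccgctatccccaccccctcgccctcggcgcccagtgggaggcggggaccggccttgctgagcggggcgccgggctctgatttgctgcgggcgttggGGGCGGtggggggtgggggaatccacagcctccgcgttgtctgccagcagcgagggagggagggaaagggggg
Col5a3: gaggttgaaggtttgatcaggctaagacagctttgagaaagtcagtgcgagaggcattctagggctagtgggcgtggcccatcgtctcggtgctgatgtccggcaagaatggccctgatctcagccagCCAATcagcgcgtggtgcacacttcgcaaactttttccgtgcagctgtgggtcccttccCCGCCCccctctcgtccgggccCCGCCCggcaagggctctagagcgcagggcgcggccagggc

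The 2 X-linked type IV genes Col4a5 (chrX:141475169-141475418, plus strand) and Col4a6 (chrX:141474077-141474326, minus strand) are shown because they point away from each other with annotated starts 1343 bases apart, yet differed in ratio.
Col4a5: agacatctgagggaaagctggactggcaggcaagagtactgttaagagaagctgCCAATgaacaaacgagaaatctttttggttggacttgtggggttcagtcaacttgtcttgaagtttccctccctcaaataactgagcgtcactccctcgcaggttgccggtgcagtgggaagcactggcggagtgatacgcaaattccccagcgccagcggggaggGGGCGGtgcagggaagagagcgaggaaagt
Col4a6: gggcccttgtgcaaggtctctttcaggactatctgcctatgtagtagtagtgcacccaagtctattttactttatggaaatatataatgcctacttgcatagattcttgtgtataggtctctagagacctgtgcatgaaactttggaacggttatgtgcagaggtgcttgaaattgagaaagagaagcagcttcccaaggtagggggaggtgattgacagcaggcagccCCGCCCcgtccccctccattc

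Col18a1 has 2 annotated windows in the table (chr10:77166531-77166780, minus strand, and chr10:77113706-77113955, minus strand). It was the 1 chain at least 2-fold higher in Fut8-/-, and the sources used here do not say which start its probe sets report on.
Col18a1 first window: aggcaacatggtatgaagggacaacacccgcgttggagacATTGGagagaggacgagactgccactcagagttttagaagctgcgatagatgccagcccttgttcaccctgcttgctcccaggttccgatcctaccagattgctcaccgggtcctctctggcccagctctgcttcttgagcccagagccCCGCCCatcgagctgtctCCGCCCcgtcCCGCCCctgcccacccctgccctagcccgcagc
Col18a1 second window: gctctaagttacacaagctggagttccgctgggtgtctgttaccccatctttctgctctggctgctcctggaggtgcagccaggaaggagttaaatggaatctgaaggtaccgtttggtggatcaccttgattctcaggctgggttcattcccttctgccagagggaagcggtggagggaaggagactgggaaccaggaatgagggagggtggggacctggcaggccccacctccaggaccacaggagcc

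A window was found for 33 of the 42 chains on the array, and for 16 of the 19 measured ones. The Col5a3 and Col1a2 windows each held 1 CCAAT box and 2 GC boxes, and the Col5a1 window 2 GC boxes. The Col4a5 window held 1 of each and the Col4a6 window 1 GC box. The first Col18a1 window held 3 GC boxes and a CCAAT box on the reverse strand, and the second had no match to any of the 3 motifs. Over the 38 collagen windows in the table, 22 (57.9%) held a GC box, against 32.7% of all 32851 windows of this length. A CCAAT box stood in 13 (34.2%) against 33.8%, and a TATA box in 5 (13.2%) against 12.4%. Of the 38 windows, 36 belonged to chains on the array. The others were those of Col6a6 and Col28a1, for which no probe set was named. A GC box stood in all 5 windows of chains at least 2-fold lower, in 8 of 11 of chains within the 2-fold limit, in 1 of 2 of the higher chain and in 7 of 18 of unmeasured chains. The median G and C content of these windows was 62.8%, 60.8%, 59.8% and 57.4%, against 52.4% over all windows. The 5 windows include 2 of the same gene, Col6a2, and Col1a1 has none in the table.

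Of the 42 chains, 19 were measured and 23 were not. Collagen chains were lower in Fut8-/- more often than higher: 5 of the 19 (26.3%) were at least 2-fold lower, 1 (5.26%) was at least 2-fold higher and 13 lay between. Over all 10164 measured genes the shares were 8.46% lower and 6.08% higher by the same limit. The 5 lower chains were Col5a3, Col4a6, Col5a1, Col1a1 and Col6a2, and the higher one was Col18a1. The ratio was below 0 for 15 of the 19 chains, and their median was -0.59, beside 49.9% below 0 and a median of 0.00 over all measured genes. The Col5a2 ratio of 0.12 became -0.10 without centring, -0.03 under quantile normalization and under loess, and -0.11 with the median over all probe sets. That of Col1a2 turned from -0.04 to 0.09 with each chromosome centred on its own genes. Without centring 6 chains were lower and 1 higher, against 11.8% and 4.08% of all genes. Counted by probe set, 10 of 34 measured collagen probe sets were lower and 2 higher, against 8.16% and 5.94% of all measured probe sets. With the limit for measured genes raised to the 75th percentile, so that bright genes are set against bright genes, 4 of 17 chains were at least 2-fold lower and 1 higher. The background there was 6.05% lower and 4.48% higher, and the median of the chains was again -0.59.

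**Figure D1:**
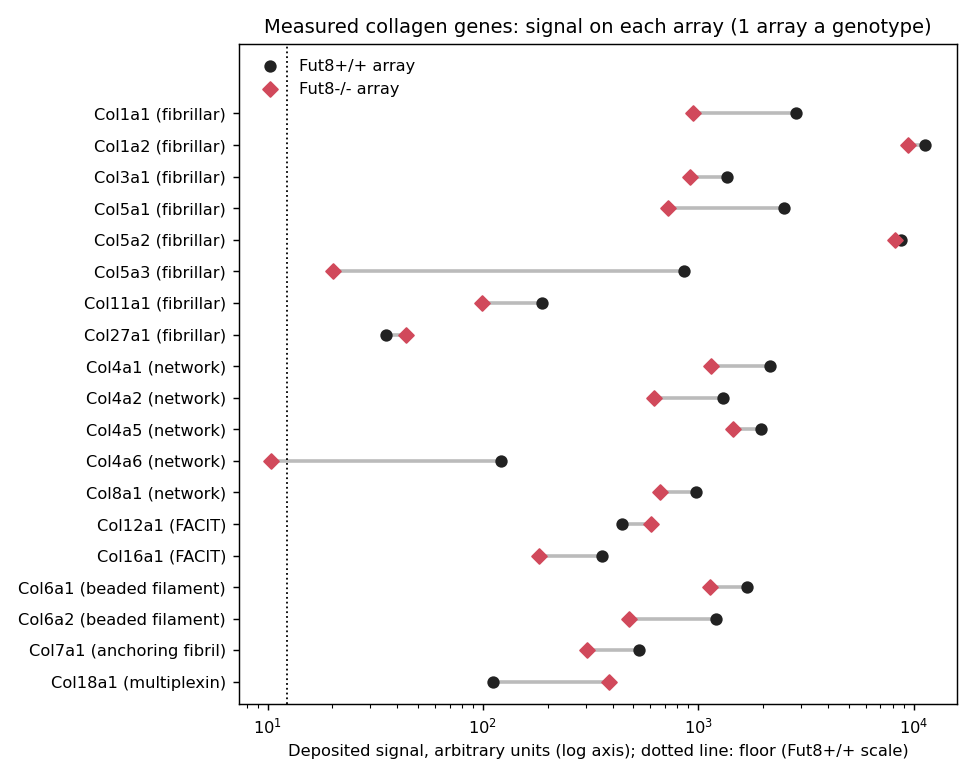
Deposited signal (arbitrary units, log axis) of the 19 measured collagen genes on the Fut8+/+ array (black circles) and the Fut8-/- array (red diamonds), 1 probe set a gene and 1 array a genotype, with the floor as a dotted line. The longest lines are those of Col5a3 (858 and 20.2) and Col4a6 (121 and 10.4), and Col18a1 runs the other way (111 and 384).

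**Figure D2:**
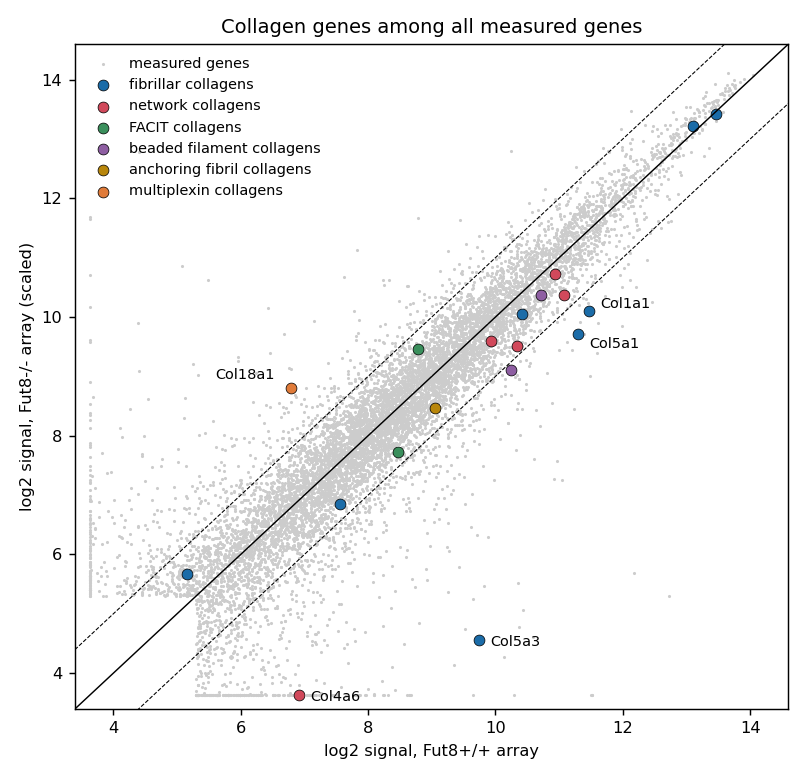
Scaled log2 signals of all measured genes (grey) and of the measured collagen genes (coloured by class) on both arrays, with signals under the floor set to it. Lines mark equal signal and a 2-fold difference; Col5a3, Col4a6, Col5a1, Col1a1 and 1 unlabelled beaded filament chain, Col6a2, lie below the lower line and Col18a1 above the upper one.

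Fibrillar collagens were the class with most measured chains, 8 of 11. Of these 3 were at least 2-fold lower (37.5%, beside 8.46% of all measured genes), none was higher by that much (beside 6.08%), and the median ratio was -0.54. The lower ones were the type V chains Col5a1 and Col5a3 and the type I chain Col1a1. The type III chain and the partners Col1a2 and Col5a2 lay within the limit.

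Type V collagen is incorporated into type I fibrils and limits their diameter. Col5a3 encodes an alpha 3 chain found in a minor heterotrimer, and it read 858 in Fut8+/+ against 20.2 in Fut8-/-. This is a ratio of -5.19, or 36.5-fold lower, and the largest difference among the measured chains, although Col4a6 has only a bound. The Fut8-/- signal lay above the floor, at the 53.2 percentile of its array. The value rests on 1 probe set (1419703_at), since the other probe set of the gene, at 1.80 and 2.59, was under the floor on each array. Counting that probe set at 0 through the median over all probe sets gave -2.59, and a floor at the 60th percentile gave -4.45.

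Col5a1, the chain present in nearly all type V molecules, had signals of 2515 and 725, a ratio of -1.58 (2.98-fold lower). Its other probe sets gave -1.55, with signals of 165 and 48.4, and -1.11, with signals of 1092 and 436, so all 3 were past the limit. Col5a2, its usual partner, had signals of 8756 and 8173 and a ratio of 0.12, and its second probe set, with signals of 1687 and 1153, gave -0.33. The type V chains differed in ratio among themselves: Col5a1 was lower than Col5a2 by 1.69 in log2 ratio, and by 0.78 to 1.69 over the 6 combinations of their probe sets. Col5a3 was lower than Col5a1 by a further 3.61, a comparison chosen after the values were seen.

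Type I collagen, the main protein of connective tissue fibres, is made of alpha 1 chains from Col1a1 and an alpha 2 chain from Col1a2. The Col1a1 signals were 2832 and 941 at the brighter probe set (1423669_at), a ratio of -1.37 or 2.59-fold lower. The second Col1a1 probe set (1455494_at) read 1852 and 1156, a ratio of -0.46, within the 2-fold limit. The median over both was -0.92, so the call for Col1a1 depends on which probe set stands for the gene. Col1a2 read 11279.8 and 9433 at its brightest probe set, a ratio of -0.04, and its others gave -0.26 (8138 and 5853) and -0.41 (108 and 69.8). All probe sets of both genes were lower in Fut8-/-, by differing amounts. The size of the difference between Col1a1 and Col1a2 was 1.33 for the brightest probe sets but ranged from 0.05 to 1.33 over the 6 combinations.

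The brightest probe sets of Col1a2 and Col5a2 lay above the 99.5 percentile of signals on both arrays. Genes that bright differed less often: among 233 genes that reached the 99th percentile on their brighter array, 1.72% were lower and 3.43% higher by the 2-fold limit. The dimmer probe sets of both genes gave lower ratios than the brightest. Whether signal saturates there was not tested, as no detection or saturation calls were used here.

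The type III chain Col3a1, a homotrimer abundant in embryonic and repairing tissue, had signals of 1366.0 and 912, a ratio of -0.36, and -0.22 at its dimmer probe set. Col11a1, which belongs to the fibril-nucleating type XI, had 189 and 98.7, a ratio of -0.72, and -0.77 at its second probe set. Col27a1, a fibrillar chain described in developing cartilage, was dim and went the other way, with 35.5 and 43.7 (0.52, and 0.40 at its second probe set). None of these was past the limit. Col27a1 was also the measured chain nearest the measuring limit, while the beaded filament chain Col6a3 (33.5 and 14.1) and the FACIT chain Col9a1 (32.6 and 8.16) stood just outside it. The unmeasured fibrillar chains were Col2a1 and Col11a2, known from cartilage, and Col24a1, with signals between 2.85 and 13.0.

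**Figure D3:**
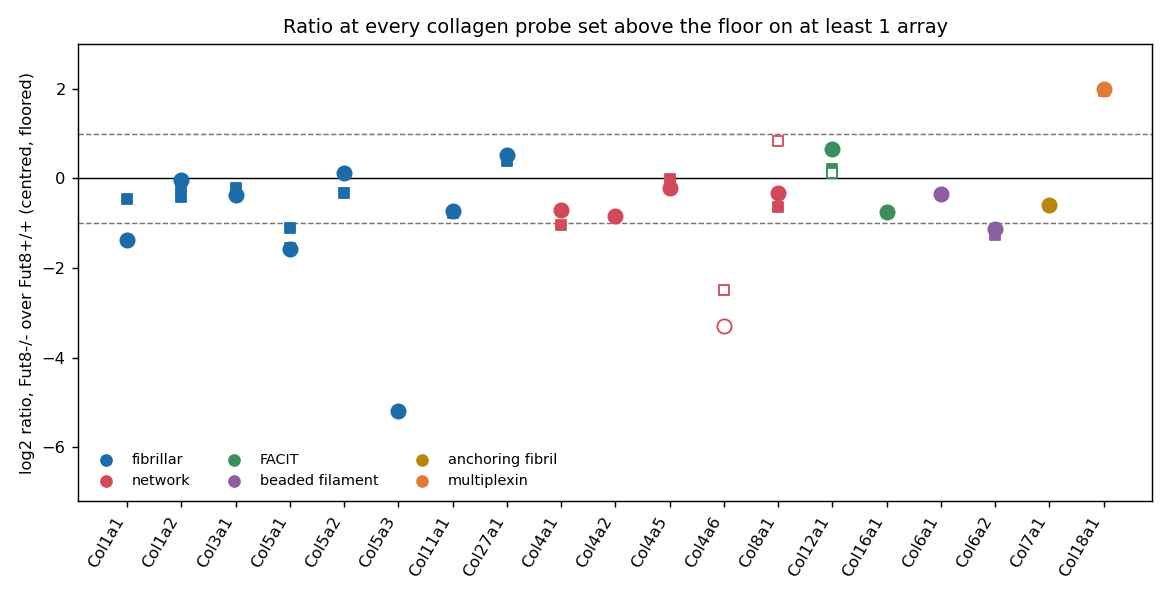
Log2 ratio of Fut8-/- over Fut8+/+ (centred and floored) at every probe set of the measured collagen genes that lay above the floor on at least 1 array, by gene and coloured by class. Large circles are the probe sets that stand for the gene, small squares the others, open symbols bounds with 1 array at the floor, and dashed lines the 2-fold limit. The 2 Col1a1 points (-1.37 and -0.46) lie on either side of the limit, whereas those of Col5a1 and Col18a1 lie on the same side.

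Network collagens gave 5 measured chains of 9, all with a ratio below 0 and a median of -0.69. Col4a6 was the only one past the 2-fold limit (20% of 5, beside 8.46% of all genes). Type IV collagen is the scaffold of basement membranes, and its 6 chains are encoded by gene pairs that lie head to head.

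Col4a1 and Col4a2, the chains of the common type IV molecule, start 21 bases apart on chromosome 8 of GRCm38.p6. Col4a1 had signals of 2149.9 and 1142, a ratio of -0.69, and its second probe set (348 and 146) gave -1.04, just past the limit. Col4a2 had 1297 and 624, a ratio of -0.84, or -1.05 without centring, where it passed the limit. The paired genes thus lay 0.14 apart in ratio, less than the probe-set spread of 0.40.

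The X-linked pair differed. Col4a5 had signals of 1949 and 1453, a ratio of -0.20, and -0.01 at its second probe set. Col4a6, whose chain forms molecules with that of Col4a5 in some basement membranes, had 121 and 10.4, and was at least 9.78-fold lower in Fut8-/-. Its second probe set, with signals of 69.0 and 6.24, gave at least 5.59-fold. Over the 4 combinations of probe sets the ratio of Col4a6 was below that of Col4a5 by 2.28 to 3.28, a comparison chosen after the values were seen. The bound depends on the floor, and the Col4a6 ratio was -1.63 with the floor at the 60th percentile. Raising the limit for measured genes to the 75th percentile left Col4a6 out.

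The X chromosome as a whole was near balance, with a median ratio of 0.02 over 324 measured genes. Sex-linked transcripts did differ between the cultures: Xist, the RNA that coats the inactive X, read 656 and 15.2, and the Y-linked Eif2s3y read 7.06 and 2845. With 1 array each, this difference cannot be told apart from genotype in the values of any of the 42 chains. Col4a3 and Col4a4, the pair on chromosome 1 known from kidney and other specialised membranes, were not measured.

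Col8a1, a short-chain network collagen of vessel walls and corneal membranes, had signals of 972 and 663, a ratio of -0.33. Its second probe set gave -0.63, and its remaining dim one, with the Fut8+/+ array at the floor (11.7 and 19.0), had the opposite sign. Its partner Col8a2 and Col10a1, the marker of hypertrophic cartilage, were not measured. The 4 unmeasured network chains had signals from 0.93 to 12.8.

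The FACIT class moved in both directions and no chain passed the limit. Only 2 of 9 were measured, with a median of -0.04. Col12a1, which binds type I fibrils in dense connective tissue, was higher in Fut8-/- with signals of 443 and 602 (0.66), and 78.9 and 78.6 at its second probe set (0.21). Col16a1 was lower, with 356 and 182 (-0.74), from a single probe set. The unmeasured ones were the type IX chains Col9a1, Col9a2 and Col9a3 of cartilage, Col14a1, Col19a1, Col20a1 and Col22a1, with signals between 0.82 and 32.6. The 2 probe sets of Col9a1 with 1 array above the floor pointed in opposite directions.

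Of the type VI chains 2 were measured, and 1 of them, Col6a2, was at least 2-fold lower (50% of 2, beside 8.46% of all genes). Col6a1 had signals of 1686 and 1136, a ratio of -0.35. Col6a2, which lies near Col6a1 on chromosome 10 and whose chain joins it in the same molecule, had 1215 and 475, a ratio of -1.14 or 2.20-fold lower, and its second probe set gave -1.27. The ratio of Col6a2 was thus below that of Col6a1 by 0.78 to 0.92. Col6a3, the remaining chain of the common type VI molecule, had a ratio of -1.03 but was too dim to be measured. Col6a4 and Col6a5 were not measured either, and no probe set here was named for Col6a6 or Col28a1.

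The remaining classes held the 1 chain past the limit on the higher side. Col18a1 encodes the multiplexin of basement membranes whose C-terminal fragment is endostatin. Its signals were 111 and 384, a ratio of 2.01 or 4.02-fold higher in Fut8-/-. The second probe set, with 61.5 and 205, gave 3.87-fold. Both lay above the floor on both arrays, and the ratio stayed between 1.79 and 2.04 over all settings in which it was computed. Neighbouring chains on chromosome 10, Col6a1 and Col6a2, had ratios below 0, and the median of 501 measured genes of that chromosome was 0.11. The other multiplexin, Col15a1, was not measured, although its signal went from 0.94 to 14.9. Col7a1, which forms the anchoring fibrils beneath epithelia, had signals of 533 and 305 and a ratio of -0.59. None of the transmembrane collagens Col13a1, Col17a1, Col23a1 and Col25a1 was measured (signals from 0.56 to 14.5), nor was Col26a1.

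For 13 measured chains at least 2 probe sets had neither array at the floor, and these agreed in sign for 12 of the 13. The exception was Col5a2. Some of the agreeing ratios were close to 0, such as -0.04 for Col1a2 and -0.01 for Col4a5. Probe sets of a gene read the same 2 RNA samples, so their agreement is no replicate check. The share over all genes was not computed. Chromosome medians of the 19 chains' chromosomes ran from -0.22 (chromosome 4) to 0.24 (chromosome 3). After each chromosome was centred on its own genes the same 5 chains were at least 2-fold lower (background 8.17%) and Col18a1 at least 2-fold higher (background 5.21%). The ratios were then -5.23 for Col5a3, -3.32 for Col4a6, -1.68 for Col5a1, -1.50 for Col1a1, -1.24 for Col6a2 and 1.90 for Col18a1.

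**Figure D4:**
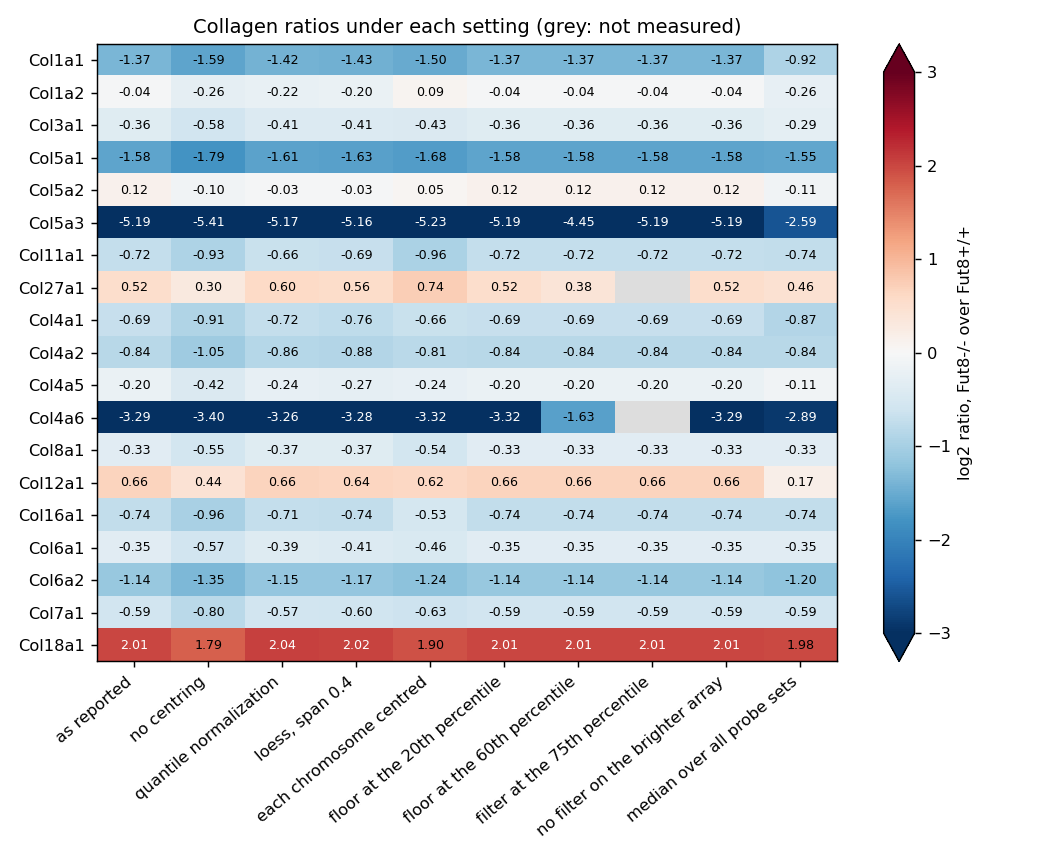
Log2 ratio of each measured collagen gene under the reported setting (left column) and under 9 alternatives, with blue for lower and red for higher in Fut8-/- and grey where the gene was not measured. Col5a3, Col4a6, Col5a1 and Col6a2 stay below -1 in all columns that hold them, Col1a1 in all but the median over probe sets (-0.92), and Col18a1 stays above 1.

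Genes whose products act on collagen were counted from lists of known roles. Of the enzymes and chaperones that hydroxylate and fold procollagen in the endoplasmic reticulum, 15 of 17 on the array were measured, with 1 higher and 1 lower by the 2-fold limit and a median of -0.37. That is 6.67% each way, near the background of 6.08% and 8.46%. The lower one was P4ha2, a catalytic subunit of prolyl 4-hydroxylase, which stabilises the helix, with signals of 747 and 185 (3.46-fold). The higher one was P3h2, a prolyl 3-hydroxylase that acts on type IV collagen, with 15.6 and 145 (10.8-fold). Its Fut8+/+ signal was close to the floor, and its ratio of 3.43 became 2.11 with the floor at the 60th percentile. The collagen galactosyltransferase gene Colgalt1 had 1161 and 558, a ratio of -0.84. The collagen chaperone gene Serpinh1 and P4hb lay within the limit.

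Export and transcription factors of procollagen gave 1 lower and 0 higher among 7 measured genes (14.3% lower, beside 8.46% of all genes; median -0.40). Creb3l1, a membrane-bound transcription factor that activates type I collagen genes in bone, had signals of 66.7 and 0.94, at least 5.40-fold lower. The coat protein genes Sec24d and Sec23a, which help to load large procollagen into vesicles, had ratios of -0.83 and -0.71. Creb3l1 was within the limit with a floor at the 60th percentile (-0.77).

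Of the processing proteinases and their enhancers 3 of 8 were measured (median 0.24). By the 2-fold limit 1 was higher (33.3% of 3, beside 6.08% of all genes) and 0 were lower (beside 8.46%). Pcolce2, which enhances removal of the C-terminal propeptide, was 3.72-fold higher, with signals of 396 and 1265. The C-proteinase gene Bmp1 (190 and 193) had a ratio of 0.24 and the enhancer gene Pcolce -0.15.

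Lysyl oxidases, which cross-link collagen and elastin, were lower for 3 of 4 measured genes (75%, beside 8.46% of all genes; median -3.52): Lox by at least 237-fold, Loxl1 by 48.3-fold and Loxl3 by 2.71-fold, whereas Loxl4 had a ratio of -0.03. The sizes depended on the probe sets and the floor: Lox went from a ratio of -7.89 to -6.22 and Loxl1 from -5.60 to -3.76 with the median over all probe sets, and Lox to -6.23 with the floor at the 60th percentile. None of 4 measured collagen receptor and uptake genes passed the limit (median -0.64). The largest ratios were those of the endocytic receptor gene Mrc2 (-0.91), Ddr2 (-0.65) and Itgb1 (-0.63), whereas Ddr1 went the other way (0.34). Mrc2 passed the limit without centring (-1.13) and with each chromosome centred (-1.05), and Ddr2 with the median over all probe sets (-1.16). Among 6 measured genes of collagen breakdown 1 was at least 2-fold lower (16.7%, beside 8.46% of all genes), the gelatinase gene Mmp2 (21.0-fold). Ratios within the limit included Timp1 at -0.90, Timp3 at -0.52 and Mmp16 at 0.45, and the list median was -0.43.

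**Figure D5:**
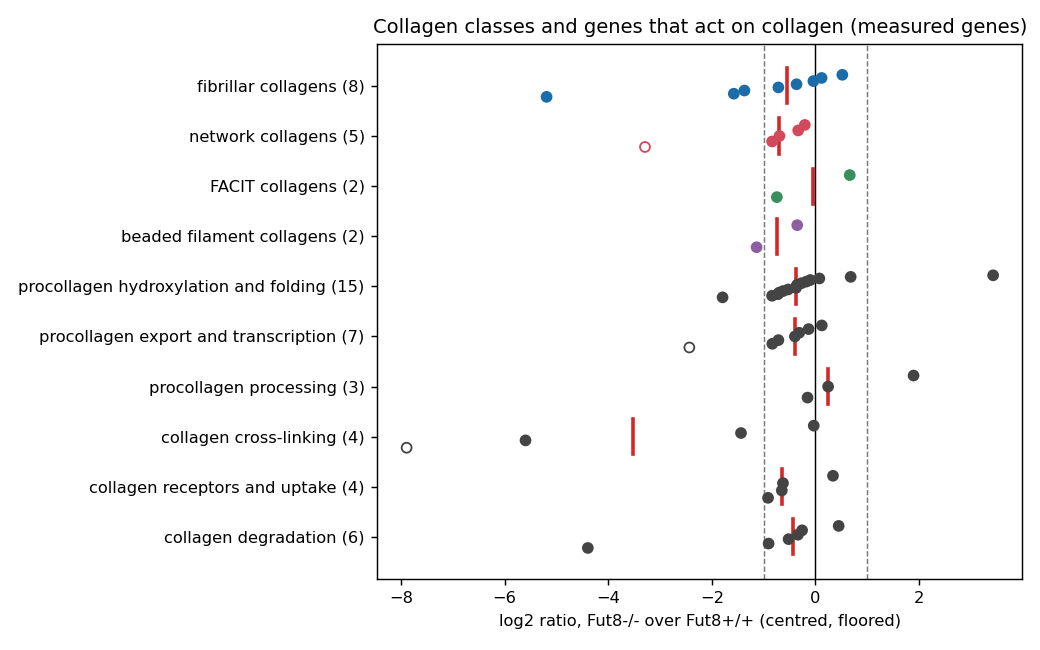
Log2 ratio of every measured gene in 4 collagen classes (coloured) and in 6 lists of genes that act on collagen (dark grey), with the number of measured genes in brackets. Red bars are list medians, dashed lines the 2-fold limit and open circles bounds with 1 array at the floor; the cross-linking median is -3.52 and the network median -0.69.

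The targeted gene Fut8 read 191 in Fut8+/+ and 11.7 in Fut8-/- at its brightest probe set, 14.1-fold lower. Of 12 fibroblast markers 8 were measured, but Col1a1, Col1a2 and Col3a1 among them are collagen chains themselves. Of the other 9 markers 5 were measured, and Dcn, Lum, Thy1 and Fap were not. The deposited signals were 11471 and 11111 for Vim, 8152 and 10180 for S100a4, and 342 and 626 for Pdgfrb. They were 221 and 7.26 for Prrx1, and 61.9 and 23.6 for Pdgfra. Of the 8 measured fibroblast markers, 3 (37.5%) were at least 2-fold lower: Col1a1, Pdgfra and Prrx1, the last by at least 17.9-fold. Pdgfrb (12.5%) was at least 2-fold higher. Over all measured genes the shares were 8.46% lower and 6.08% higher. Of 6 smooth muscle markers 4 were measured and 3 (75%) were at least 2-fold lower. These were Myl9 (96.0 and 9.21), Tagln (158 and 20.2) and Des (55.9 and 10.2), and Acta2 lay within the limit. Of 8 epithelial markers 3 were measured. Krt19 (2.08 and 155) and Dsp (5.07 and 71.1) were higher (66.7%), and Epcam (44.9 and 15.9) was lower (33.3%). Macrophage and endothelial markers were measured for 2 of 7 each and none passed the limit; chondrocyte and bone markers were measured for 1 of 7 on the array, Sox9 (ratio -0.93), and adipocyte markers for 1 of 4, Pparg, which was 2.60-fold lower. The part of these marker differences in the collagen values was not tested. In whole cultures, fewer cells of a kind and less RNA per cell cannot be told apart.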

How the data were processed

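Biotin-labelled RNA was measured on 1 Affymetrix mouse array per genotype, grouped by the genotype label. Signal intensity values, on a linear scale, were deposited by the authors; the software was GCOS (Affymetrix), per the submitters' processing notes, and no version, algorithm or scaling target is given in the sources used here. The table held 45101 probe sets. From these, log2 ratios were centred on their median (-0.22) over the 23885 probe sets that passed the 40th percentile of each array, floored at the 40th percentile of both arrays pooled, and called measured from the 60th percentile. Names came from GEO's platform annotation, 34945 probe sets with 1 symbol, 932 with several and 9160 with none, beside 64 controls; 34741 matched the gene table of GRCm38.p6, which changed 0 symbols. Every measured chain is named. Of each list acting on collagen up to 3 genes with the largest absolute ratio are named. Further ones (Loxl4, Serpinh1, P4hb, Mmp16, Ddr1 and the unmeasured Gp6) were picked with their values in view. The members, lists and settings were chosen with earlier results of these data known. No test of genotype is possible with 1 array a group, and the number of arrays limits the precision. The steps were run on a simulated pair of arrays, with changes set only in bright genes and equal for all probe sets of a gene. Changes near the floor and disagreement between probe sets were therefore not tested by it. Python 3.11.15, numpy 2.4.6, pandas 2.3.3, scipy 1.17.1 and statsmodels 0.14.6 were used. The alternatives are no centring, quantile normalization, loess (span 0.4), centring by chromosome, floors at the 20th and 60th percentiles, a filter at the 75th percentile or none, and 2 other treatments of probe sets.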

Additional observations from a re-analysis of the deposited data

How the results depend on the processing

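Col18a1 was the higher chain under all 10 alternatives, and Col5a1, Col5a3 and Col6a2 were at least 2-fold lower under all 10. Without centring 6 chains were lower (background 11.8%; 4.08% higher), Col4a2 being added. Counting every probe set gave 10 lower and 2 higher of 34 collagen probe sets (background 8.16% and 5.94%). Col1a1 was lost with the median over all probe sets and Col4a6 with the filter at the 75th percentile, which left 4 lower in each case. Shares over all genes were not computed with the median over all probe sets, quantile normalization, loess, other floors or no filter. With no filter 7 chains were lower, with Col6a3 and Col9a1 added, and 22 of 42 had a ratio below 0. The medians then moved to -0.038 for all chains, -0.073 for fibrillar and -0.20 for network ones, because the 23 dim chains, 10 of them at the floor on both arrays, were included. In the other comparisons the median of all chains stayed between -0.80 and -0.52. Among the lists acting on collagen, genes at least 2-fold lower numbered 2 for folding, 2 for export, 1 for receptors and 2 for degradation without centring (background 11.8%). Counted by probe set instead of by gene, the lower ones numbered 2, 2, 1 and 2, with 5 for cross-linking (background 8.16% of measured probe sets). The measured probe sets of each list were not counted, so these numbers have no share. Under the reported setting these lists held 15, 7, 4, 6 and 4 measured genes in that order. Shares within the lists were not computed under the alternatives. The export count was 2 with chromosomes centred (background 8.17%) and 0 with the floor at the 60th or the filter at the 75th percentile. The receptor count was 1 with chromosomes centred (Mrc2), without a filter (the dim Gp6) and with the median over all probe sets (Ddr2). A median was counted as moved when it shifted by more than the probe-set SD of 0.40. Signal near the floor limits Col4a6, Creb3l1, P3h2, the unmeasured chains and Lox (-9.27 with the floor at the 20th and -6.23 at the 60th percentile), as well as Col5a3 (-4.45 at the 60th). No paired analysis was possible because each genotype has 1 array, and for the same reason no replicate could be left out.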
